A study of Mus musculus with 16 samples.

Results

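The response of control mouse liver to refeeding was examined over all genes counted in the 8 control libraries, 4 refed (S48 to S51) and 4 fasted (S40 to S43), of 16 libraries in the series. The files list 23590 genes for this pair of groups and 25803 genes for the series as a whole. All mice were male, and all ate a high-fat diet for 12 weeks. Fasted mice went without food for 16 h before the liver was taken, and refed mice had food again for 6 h after the same 16 h fast. The genotype label of these 8 samples is "Control", and the series text calls the animals WT. Their strain and age are not given in the sources used here. The other 8 libraries came from mice that lack Cpt1a in the liver (LKO), on the same diet and the same 2 feeding schedules, 4 libraries each, and the way that knockout was made is not stated in the labels. They enter only the shared estimate of the spread and the last comparison. RNA was poly-A selected from whole liver, so that for every result fewer cells of a type and less RNA per cell cannot be told apart.

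In the fasted state the liver exports glucose, oxidises fatty acids and makes ketone bodies, and its hepatocytes break down part of their own contents by autophagy. When food returns, insulin rises, glycogen is rebuilt, fatty acid synthesis is switched on through the transcription factors SREBP1 and ChREBP, and the synthesis of plasma proteins in the endoplasmic reticulum (ER) speeds up. Food also sets the phase of the liver's circadian clock, a feedback loop in which the period and cryptochrome proteins repress their own activators and the nuclear receptor REV-ERB represses Arntl.

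The control libraries held between 14721601 and 24618230 counts. The 10 most abundant genes took 18.5 ± 0.43% of the counts in fasted and 18.3 ± 0.48% in refed libraries (SD, n = 4; exact permutation test, two-sided, p = 0.486). Transcripts of the mitochondrial genome took 5.66 ± 0.47% and 6.30 ± 0.26% (SD, n = 4; exact permutation test, two-sided, p = 0.0571, where 4 against 4 libraries cannot go below 0.0286). Hepatocyte markers were abundant in every library, with a summed level of 78500 to 95480 CPM (the read count of a gene relative to the scaled library total), and 0 of the 8 tested were called in either direction. Over the marker lists of 11 other cell types 3 genes were called: Lrat and Reln among stellate cell genes, both higher in refed livers (0.95 and 0.39 on the log2 scale), and Cd9 among macrophage genes, which was lower (−0.69). Of these Lrat alone kept its call in each fit that left out 1 library. The summed level of red blood cell genes ran from 383 to 1264 CPM in fasted and from 263 to 744 CPM in refed libraries. Samples are labelled as separate within a group, but nothing states that each is a different animal, so p-values measure the spread between these samples.

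Between fasted and refed control livers 2238 of 14488 genes tested differed (15.4%). A gene is said to be called where it had a Benjamini-Hochberg adjusted p under 0.05 over all genes in edgeR's quasi-likelihood test. Of the called genes, 1129 (7.79% of those tested) were higher and 1109 (7.65%) lower in refed livers. Most changes were modest. The median size of a called change was 0.49 on the log2 scale, a 1.40-fold difference, and 272 called genes changed at least 2-fold, 119 up and 153 down. Over all genes tested the median log2 fold change was 0.009. Of the 14488 genes, called or not, 1501 had every refed library above every fasted one, and 1458 had every refed library below. Statements on single genes without overlap are to be read beside these counts. The number of calls rested in part on single libraries: it was 1220 without S40 and 1365 without S50. The higher genes numbered 595 and 665 in these fits, and the lower genes 625 and 700, and also 737 without S43 and 705 without S48. In all, 1016 genes were called in each of the 8 fits that left out 1 library. The authors' deposited table of this comparison holds 2387 genes under the same threshold, and 1987 of them were also called here, each in the direction the authors' deposited table gives.

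Gene length moved with the response. Genes called higher had a median length of 5528 bases and genes called lower 3128 bases, against 4039 bases over all genes tested. Libraries of 1 group differed in this as well: the rank correlation across genes of a library's deviation with gene length was −0.21, −0.072, −0.072 and −0.14 in S40 to S43 and 0.078, 0.002, 0.28 and 0.14 in S48 to S51. These correlations are across genes, which are not independent. With each library's trend on length removed, 1992 genes were called, and 1737 of them were among the 2238. Lists whose count of calls moved by more than 1.5 times in that fit are named with their count.

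The largest changes by the naming rule, which took 12 rises and 12 falls by size from the called protein-coding genes that had at least 5 CPM on average and no overlap between groups, ran from Cry1 among the rises to the metallothioneins Mt1 and Mt2 among the falls. In the plot of 22 of these 24 genes by library, the refed libraries of each gene lay wholly to one side of the fasted libraries, as the rule required.

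**Figure D1:**
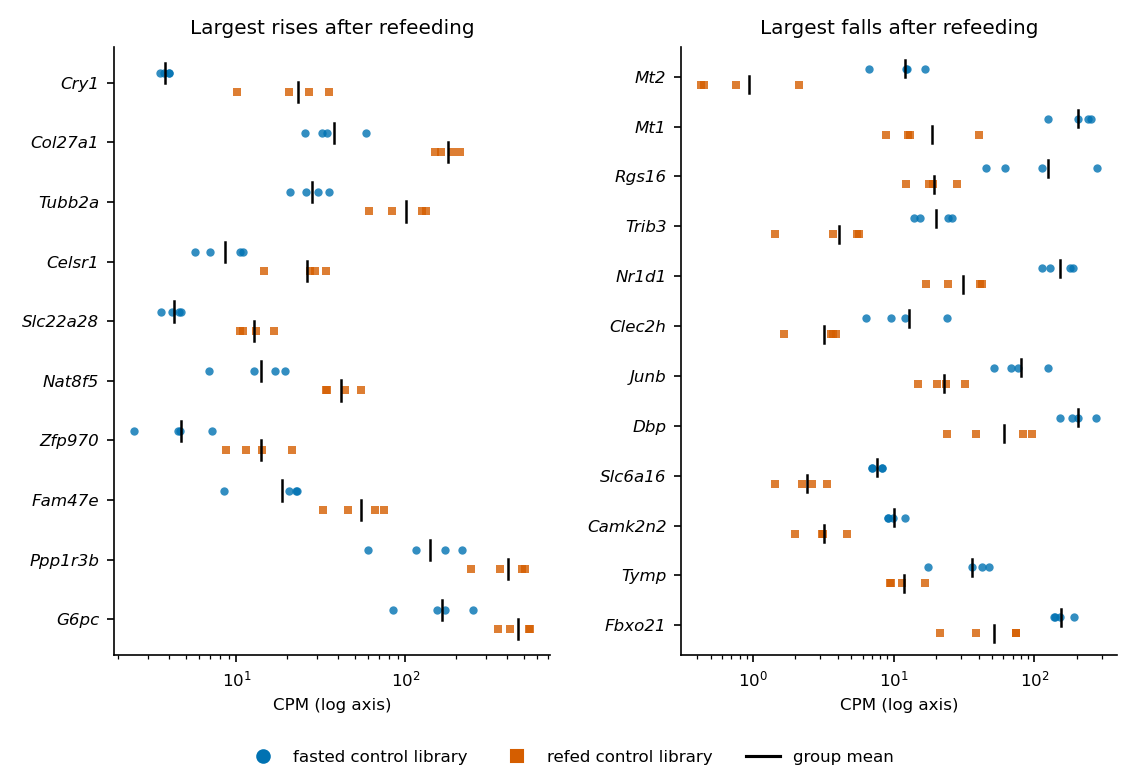
CPM (log axis) of 10 of the 12 genes with the largest rises and the 12 with the largest falls, in 4 fasted (circles) and 4 refed (squares) control libraries, with group means as bars. Cry1 lies between 3.53 and 3.98 CPM in fasted and between 10.1 and 35.4 CPM in refed libraries, and Mt1 falls from at least 124 CPM to at most 40.3 CPM.

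Both metallothionein genes of the liver, which encode small proteins that bind zinc and copper, fell further than any other gene named below. Mt1 (ENSMUSG00000031765, chromosome 8 from 94905710 to 94906955 in mm39, the build in the submitters' processing notes) stood at 240.0, 124, 203 and 252 CPM in S40 to S43, the fasted libraries, and at 8.82, 12.5, 13.0 and 40.3 CPM in S48 to S51, the refed libraries. Its mean fell from 205 ± 57.7 to 18.7 ± 14.6 CPM (SD, n = 4), 11.04-fold in the fit (log2 fold change −3.47, SE 0.51, edgeR adjusted p = 6.5e-04). S51 held 3 times or more of the Mt1 of any other refed library and still lay under every fasted one. Mt2 (chromosome 8 from 94899292 to 94900196) went from 12.4, 6.71, 12.1 and 16.6 CPM to 0.447, 0.425, 0.756 and 2.10 CPM, again highest in S51 among the refed libraries (log2 fold change −3.72, SE 0.59, edgeR adjusted p = 0.00115). Metallothionein genes respond to zinc and to glucocorticoids. Of the 11 tested genes on a list of glucocorticoid-responsive genes, Mt1 and Mt2 alone were called (18.2%, near the 15.4% over all genes). The median log2 fold change of that list was 0.094, and without S42 3 were called, 1 of them higher. Whether zinc or glucocorticoids had a part in the fall was not tested.

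Of 18 clock genes tested, 4 were called higher and 3 lower (38.9% called, beside 15.4% over all genes). Cry1, a cryptochrome that represses the clock's activators (chromosome 10 from 84967564 to 85020928), had the largest rise of the 24. It stood at 3.53, 3.97, 3.98 and 3.71 CPM in S40 to S43, and 26.8, 35.4, 20.5 and 10.1 CPM in S48 to S51, a fitted rise of 6.12-fold (log2 fold change 2.61, SE 0.42, edgeR adjusted p = 0.00118). The fasted libraries were nearly equal, whereas the refed libraries spread over a 3-fold range with S51 lowest. Its partner Per2 rose as well, from 19.1, 28.7, 29.6 and 14.4 CPM to 66.4, 63.4, 55.1 and 38.4 CPM, without overlap (log2 fold change 1.28, SE 0.26, edgeR adjusted p = 0.00437). The repressor Bhlhe40 rose from 81.6 ± 16.3 to 135 ± 26.4 CPM (SD, n = 4; log2 fold change 0.73, edgeR adjusted p = 0.00853). In the opposite direction Nr1d1, which encodes REV-ERB alpha, fell from 179.5, 129, 113 and 188 CPM to 24.1, 17.0, 42.3 and 41.1 CPM (log2 fold change −2.29, SE 0.34, edgeR adjusted p = 7.2e-04). Every refed library held less than 43 CPM of Nr1d1 and every fasted one more than 112 CPM.

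Dbp, a PAR bZIP activator that follows the clock, stood at 274, 204, 185 and 153 CPM in fasted and 38.1, 24.01, 82.5 and 96.7 CPM in refed libraries. It fell by 1.76 on the log2 scale (SE 0.50, edgeR adjusted p = 0.0267) and was not called without S40, S48 or S49. Bhlhe41 was lower too (−2.17, edgeR adjusted p = 0.0137), a call lost without S40. Arntl, the gene of the activator BMAL1, overlapped between the groups: it ran from 0.943 to 3.77 CPM in fasted and from 2.58 to 12.2 CPM in refed libraries (log2 fold change 1.68, edgeR adjusted p = 0.107). Per1 did not pass either (0.24, edgeR adjusted p = 0.726). Refed livers were taken 6 h later into the experiment than fasted ones, and the labels give no clock time. Feeding and time of day can therefore not be told apart, for these genes or for any other gene of the comparison. In RefSeq promoter windows (GRCm38.p6, 250 bases before to 50 after the start), the E-box CACGTG, to which the clock's activators bind, was found on 5 of 15 matched clock promoters against 8.09% of 27025 genes. Those of Cry1 and Bhlhe41 are shown since both genes were called, in opposite directions. The E-box is in capitals, and its first base lies 60 and 153 bases before the start of the gene, respectively.
Cry1, chr10:85185082-85185141, minus strand: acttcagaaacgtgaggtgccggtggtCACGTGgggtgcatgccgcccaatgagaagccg
Bhlhe41, chr6:145865541-145865600, minus strand: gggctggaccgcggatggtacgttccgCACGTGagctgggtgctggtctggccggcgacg

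Many genes of the machinery that carries secretory proteins into and out of the ER rose. Of 22 ER chaperone and unfolded protein response genes tested, 14 were called higher and 0 lower (63.6% called, beside 15.4% over all genes). Their median log2 fold change was 0.64. On a list of signal peptide handling and translocation genes, 16 of 29 were higher and 0 lower (55.2% called, median 0.39). On a list of coat and cargo receptor genes between ER and Golgi, 16 of 29 were higher and 1 lower (58.6% called, median 0.33). Sec61b is on both of the first lists. The latter 2 lists were written after their genes had been seen to change, and their counts are a description. Without S40 the chaperone count was 10, and over the 8 fits that left out 1 library the translocation count stayed between 15 and 17 and the coat count between 12 and 16.

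**Figure D2:**
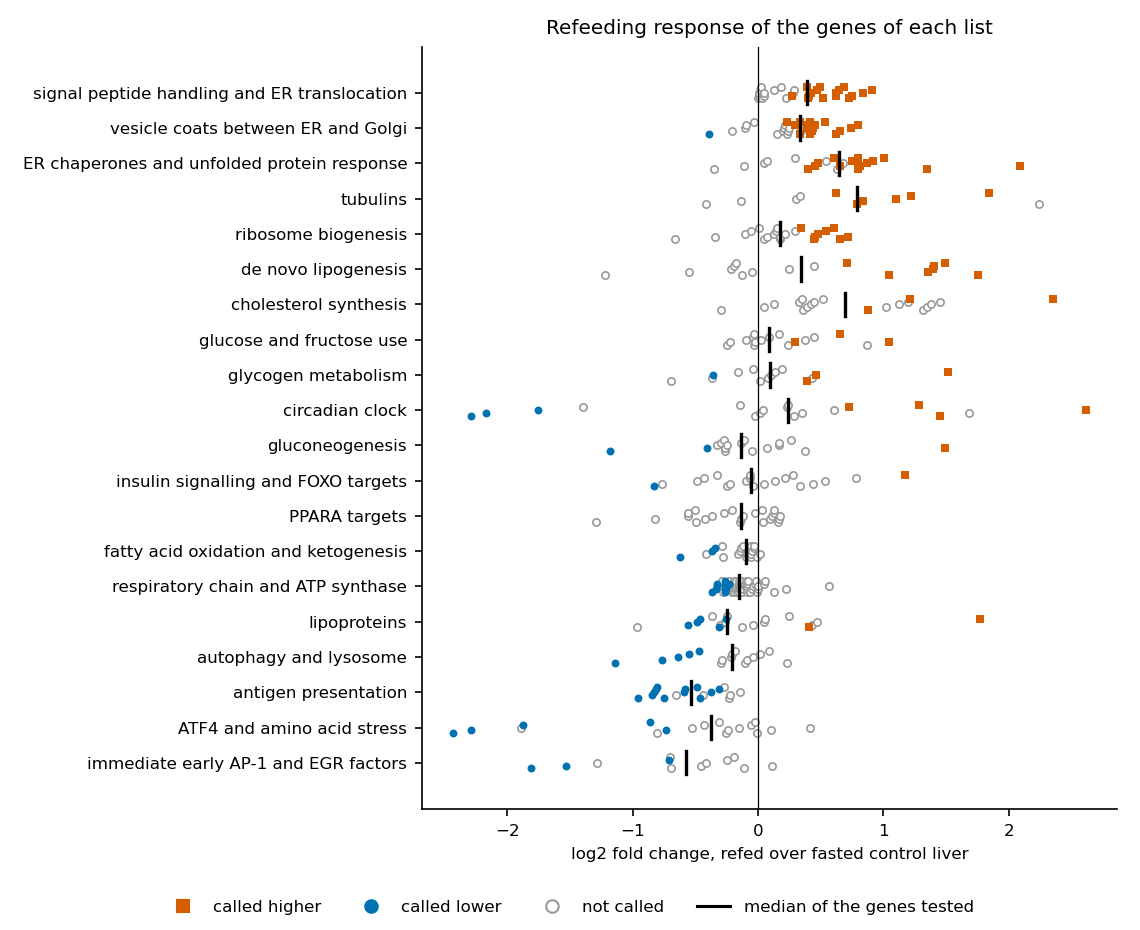
Log2 fold change (refed over fasted control liver) of each tested gene of 20 gene lists, with called genes filled and the list's median as a bar. The ER, coat and tubulin lists lie mostly right of 0, antigen presentation wholly left of 0, and the clock list splits to both sides. The ER translocation, coat, tubulin and antigen presentation lists were written after their values were seen.

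Among the chaperones, Pdia6, a protein disulfide isomerase, stood at 142, 208, 218 and 196 CPM in S40 to S43, and 466, 313, 364 and 386 CPM in S48 to S51. The rise was 2.004-fold (log2 fold change 1.003, SE 0.15, edgeR adjusted p = 9.4e-04). Its relative Pdia3, which acts on glycoproteins, went from 336 ± 42.7 to 636 ± 87.6 CPM (SD, n = 4; log2 fold change 0.92, edgeR adjusted p = 2.6e-04). Calr and Canx, the lectins that hold glycoproteins until they fold, rose by 0.80 and 0.66 (edgeR adjusted p = 0.00117 and 2.2e-04). The Hspa5 co-chaperones Dnajb11 and Dnajc3 rose by 0.82 and 0.87 (edgeR adjusted p = 2.5e-04 and 2.6e-04), and Sdf2l1 by 1.35 (0.00148). Derl3, a component of ER-associated degradation, changed most of these, from 5.66, 6.19, 9.42 and 7.72 CPM to 41.8, 5.26, 21.7 and 55.1 CPM (log2 fold change 2.09, SE 0.50, edgeR adjusted p = 0.0107). S49 lay below every fasted library, and the other 3 refed libraries lay above all of them. Hspa5, the gene of the chaperone BiP, stood at 508, 706, 837 and 571 CPM in fasted and 1092, 862, 1208 and 889.9 CPM in refed libraries. The groups did not overlap, yet the test was not passed (log2 fold change 0.63, SE 0.22, edgeR adjusted p = 0.0597). Of the genes of the stress response itself, Xbp1 had a log2 fold change of 0.044 and Herpud1 of −0.35, and neither was called (edgeR adjusted p = 0.83 and 0.334).

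The ER stress element, CCAAT and CCACG with 9 bases between them on either strand, is bound by ATF6 and XBP1 with NF-Y and stood in the promoter window of 9 of 19 matched genes on the chaperone list, against 37 of 27025 genes (0.137%). Of those 9 genes, 6 were called higher, on a list where 14 of all 22 tested genes were (63.6%). A further 11 carriers outside the list were tested, of which 2 were called higher, Ero1b and Hnrnpa3. Over all genes tested 15.4% were called and 7.79% were called higher. Whether the element had a part in the rise was not tested. None of the 22 matched translocation genes had the element in its window. For each of the 9 genes 60 bases around the element are shown, read along the gene's strand, to let carriers that rose be compared with carriers that were not called, and the other 10 of the 19 windows lack the element. The 5 bases at either end of the element are in capitals, and they read CCAAT first or, on the other strand, CGTGG first. The element begins 44 to 162 bases before the start of the gene.
Pdia6, chr12:17266470-17266529, plus strand: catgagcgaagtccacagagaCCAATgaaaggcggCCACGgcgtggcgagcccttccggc
Dnajc3, chr14:118937806-118937865, plus strand: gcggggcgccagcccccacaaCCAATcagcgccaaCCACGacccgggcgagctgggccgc
Canx, chr11:50325780-50325839, minus strand: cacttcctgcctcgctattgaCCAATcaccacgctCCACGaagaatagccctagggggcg
Calr, chr8:84847055-84847114, minus strand: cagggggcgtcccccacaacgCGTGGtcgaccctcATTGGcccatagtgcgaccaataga
Hsp90b1, chr10:86705513-86705572, minus strand: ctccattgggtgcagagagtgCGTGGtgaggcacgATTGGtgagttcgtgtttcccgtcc
Derl3, chr10:75893221-75893280, plus strand: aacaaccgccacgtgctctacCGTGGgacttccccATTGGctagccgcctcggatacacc
Hspa5, chr2:34772004-34772063, plus strand: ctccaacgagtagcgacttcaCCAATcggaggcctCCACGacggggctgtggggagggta
Creld2, chr15:88819499-88819558, plus strand: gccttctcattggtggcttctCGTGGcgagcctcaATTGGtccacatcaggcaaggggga
Syvn1, chr19:6046511-6046570, plus strand: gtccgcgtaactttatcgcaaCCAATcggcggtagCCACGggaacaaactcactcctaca
In the first 6 of these the gene was called higher, at 0.66 for Canx to 2.09 for Derl3. The last 3 were not called: Hspa5 and Creld2 had log2 fold changes of 0.63 and 0.68, and Syvn1, the gene of an ER ubiquitin ligase, had −0.11 (edgeR adjusted p = 0.0597, 0.0735 and 0.72). The refed and fasted libraries of Creld2 and of Syvn1 overlapped.

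In the translocation list every called gene rose, mostly by less than 2-fold. Ssr1, a subunit of the translocon-associated complex, stood at 50, 60.8, 62.9 and 61.0 CPM in fasted and 117, 109.8, 119 and 95.9 CPM in refed libraries (log2 fold change 0.91, SE 0.10, edgeR adjusted p = 1.5e-04). Rpn1, a subunit of the enzyme that adds N-glycans, went from 103, 104, 113 and 98.2 CPM to 199, 168, 168 and 167 CPM (log2 fold change 0.75, SE 0.083, edgeR adjusted p = 1.6e-04). In both genes every refed library lay above every fasted one. The channel genes Sec61a1 and Sec61g rose by 0.69 and 0.84 (edgeR adjusted p = 5.1e-04 and 0.00124). Serp1, which sits at the same channel and was picked for its small p, went from 158 ± 24.4 to 334 ± 37.5 CPM (SD, n = 4; log2 fold change 1.08, edgeR adjusted p = 1.5e-04). In the coats, the COPI subunit gene Copg1 rose by 0.74 and the cargo receptor gene Lman1 by 0.80 (edgeR adjusted p = 3.9e-04 and 3.8e-04), and the single fall was Copz2 (−0.39, edgeR adjusted p = 0.0252), which was not called without S40, S43, S48, S49 or S50 or once the length trend was removed.

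Fatty acid synthesis rose in part and unevenly between livers. Of 16 lipogenic genes tested, 7 were called higher and 0 lower (43.75% called, beside 15.4% over all genes). The median log2 fold change of the list was 0.35. Acly, which makes cytosolic acetyl-CoA from citrate, stood at 46.7, 56.7, 51.3 and 52.8 CPM in fasted and 126, 250.2, 95.4 and 75.8 CPM in refed libraries, without overlap (log2 fold change 1.40, SE 0.27, edgeR adjusted p = 0.00306). Fasn, the gene of fatty acid synthase, stood at 54.3, 85.9, 73.1 and 73.1 CPM and then at 218, 406, 105 and 75.1 CPM (log2 fold change 1.49, SE 0.38, edgeR adjusted p = 0.0157). S49 held the most and S51 overlapped the fasted range, and the call was lost without S40 or S49. Thrsp, a gene tied to lipogenesis, went from 150.4 ± 62.0 to 508 ± 418 CPM (SD, n = 4; log2 fold change 1.76, edgeR adjusted p = 0.0254) and was not called without S40, S43 or S49. Srebf1, the gene of SREBP1, went from 197, 146, 174 and 208 CPM to 559.9, 422, 302 and 213 CPM (log2 fold change 1.05, SE 0.27, edgeR adjusted p = 0.0159), lost without S48. Elovl6, Mid1ip1 and Acaca rose by 1.40, 1.36 and 0.71 (edgeR adjusted p = 0.0125, 0.00761 and 0.0142). Scd1, the stearoyl-CoA desaturase and the most abundant of the list per length, was not called. It stood at 3029, 3184, 4531 and 1842 CPM in fasted and 1229, 2141, 144 and 1898 CPM in refed libraries (log2 fold change −1.22, edgeR adjusted p = 0.264).

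The mean log2 deviation of the lipogenic list from its fasted mean was 0.42, 0.98, −0.17 and 0.11 in S48 to S51, against −0.074, 0.10, 0.074 and −0.10 in S40 to S43. S49 stood highest and S50 lay below every fasted library. The spread was wider for sterols. Of 20 genes of cholesterol synthesis, 3 were called (15%, near the 15.4% over all genes), Idi1, Lss and Hsd17b7, all higher. Of the 20, 19 had a log2 fold change above 0 (median 0.70). The list's mean deviation was 0.35, 1.78, 0.047 and −0.12 in S48 to S51 and −0.25, 0.45, −0.051 and −0.15 in S40 to S43, so that S49 alone lay clear of the fasted range. Sqle, the squalene epoxidase gene, was at 5.62, 40.5, 2.59 and 3.73 CPM in S48 to S51 and at 3.18, 10.04, 3.98 and 3.46 CPM in S40 to S43 (log2 fold change 1.35, edgeR adjusted p = 0.228). Without S49 none of the 20 was called higher and 1 was called lower, without S40 or S43 none was called, without S42 1 was called higher, and without S51 5 were. Idi1, the gene of an isomerase of this pathway, shows the pattern: it stood at 0.943, 2.98, 1.45 and 0.927 CPM in S40 to S43, and 3.13, 24.3, 2.95 and 1.49 CPM in S48 to S51 (log2 fold change 2.35, SE 0.75, edgeR adjusted p = 0.0431). Insig1, which retains the SREBP escort in the ER, rose by 1.36 (edgeR adjusted p = 0.0331), a call lost without S40, S42, S43, S48 or S49. Scap, the escort itself, fell from 169.8, 164, 164 and 165 CPM to 99.0, 89.2, 115 and 127 CPM (log2 fold change −0.62, SE 0.11, edgeR adjusted p = 0.00235), and its fasted libraries were within 7 CPM of each other.

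**Figure D3:**
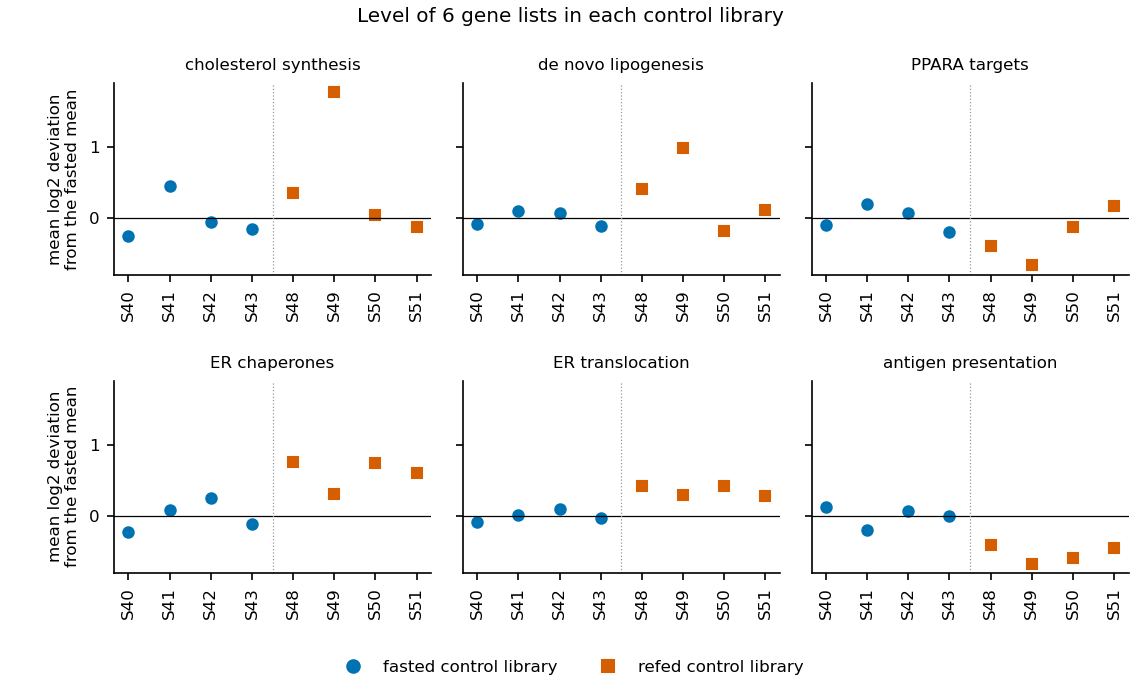
Mean log2 deviation of 6 gene lists from the fasted mean in each control library (4 fasted, circles; 4 refed, squares). For cholesterol synthesis S49 reaches 1.78 while S48, S50 and S51 lie between −0.12 and 0.35. All 4 refed libraries lie above all 4 fasted ones for ER translocation and below them for antigen presentation. The ER translocation and antigen presentation lists were written after their genes had been seen to change, so their separation is a description.

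Of 17 genes of glucose and fructose use, 3 (17.6%) were called, near the 15.4% over all genes, and all 3 were higher: Tkfc, a kinase of the fructose pathway (1.04, SE 0.19, edgeR adjusted p = 0.00268), the pyruvate kinase gene Pklr (0.65, 0.0267) and Pgk1 (0.30, 0.0273). Tkfc stood at 248, 287, 211 and 262 CPM in fasted and 557, 776, 437 and 307 CPM in refed libraries, all of the latter higher, with S49 at the top and S51 at the bottom. Pklr and Pgk1 were not called without S40, S41 or S49, which left 1 of the 17 genes called, nor was Pklr without S42 or Pgk1 without S48.

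In gluconeogenesis 3 of 17 genes (17.6%) were called, 1 higher and 2 lower, near the 15.4% over all genes. G6pc, the catalytic subunit of glucose-6-phosphatase, which makes free glucose (chromosome 11 from 101258387 to 101268729), was higher after refeeding: 83.9, 154, 172 and 252 CPM in S40 to S43 and 417, 549, 354 and 539 CPM in S48 to S51. The groups did not overlap, and the fitted rise was 2.81-fold (log2 fold change 1.49, SE 0.35, edgeR adjusted p = 0.0102). Pck1, the cytosolic PEP carboxykinase, was not called, at 2056 ± 795 and 2311 ± 719.9 CPM (SD, n = 4; log2 fold change 0.17, edgeR adjusted p = 0.729). Its mitochondrial counterpart Pck2 fell by 1.18 on the log2 scale, and pyruvate carboxylase (Pcx) by 0.41 (edgeR adjusted p = 0.0107 and 0.01). Glycogen genes included Ppp1r3b, which targets protein phosphatase 1 to glycogen. It rose from 60.1, 216, 170.4 and 115 CPM to 492, 508, 362 and 246 CPM (log2 fold change 1.52, SE 0.35, edgeR adjusted p = 0.00871), with every refed library above every fasted one. Gbe1, the branching enzyme, rose by 0.46, and Phkg2, a phosphorylase kinase subunit, fell by 0.36. Both calls (edgeR adjusted p = 0.0244 and 0.0361) were lost without S40, S42, S49 or S50, and Phkg2 also without S43 or S48. Of 14 glycogen genes 3 were higher and 1 lower with all libraries (28.6% called, beside 15.4% over all genes). The count was 1 without S40 or S50 and 2 without S42 or S49.

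Of 20 insulin signalling and FOXO target genes, 1 was higher and 1 lower (10% called, beside 15.4% over all genes). The classical FOXO targets Igfbp1 and Irs2, which insulin represses, stood at 32.9 ± 6.95 and 23.6 ± 13.3 CPM and at 8.48 ± 2.94 and 6.34 ± 2.86 CPM in fasted and refed livers (SD, n = 4). Neither was called (−0.49 and −0.43, edgeR adjusted p = 0.543 and 0.464). Eif4ebp1, the gene of a repressor of translation that mTORC1 inactivates, fell from 93.3, 61.5, 69.3 and 69.3 CPM to 32.5, 36.2, 44.98 and 51.7 CPM (log2 fold change −0.83, SE 0.15, edgeR adjusted p = 0.00284). Sik1, a salt-inducible kinase that cAMP induces, rose by 1.17 (edgeR adjusted p = 0.00649), without overlap.

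Genes of fatty acid oxidation moved little. Of 22 tested, 3 were called lower and 0 higher (13.6% called, near the 15.4% over all genes), and 21 had a log2 fold change below 0 (median −0.10). Acads, the dehydrogenase of short chains, stood at 322, 313, 318 and 309.8 CPM in fasted and 250.3, 235, 221 and 272 CPM in refed libraries (log2 fold change −0.37, SE 0.080, edgeR adjusted p = 0.00674). Eci1 fell by 0.34 (edgeR adjusted p = 0.0411), a call made with all libraries or without S51 and lost in the other 7 fits. Without S51, 6 of the 22 were lower. Cpt1a itself was at 467, 556, 547 and 378 CPM and 371, 319, 517 and 619.7 CPM (log2 fold change −0.092, SE 0.22, edgeR adjusted p = 0.817), and its refed libraries spread wider than the fasted ones. None of 23 PPARA targets was called, with a median of −0.13, and 4 were called lower without S51. Pdk4, which turns off pyruvate oxidation in the fasted state, stood at 4.98 ± 2.31 and 5.12 ± 2.11 CPM (SD, n = 4; log2 fold change 0.029, edgeR adjusted p = 0.978). Fgf21, a fasting hormone, ran from 5.18 to 39.1 CPM in fasted and from 1.91 to 14.3 CPM in refed libraries (−1.30, edgeR adjusted p = 0.154).

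On the list of ATF4 and amino acid stress, 5 of 18 genes tested were called lower and 0 higher (27.8% called, beside 15.4% over all genes). The median was −0.37, and 2 of the 18 had a log2 fold change above 0. Atf4 itself was not called (−0.027 in the authors' deposited table), nor were Psat1, Psph, Slc3a2, Slc7a5 and Mthfd2. Trib3, a pseudokinase induced by ATF4, stood at 26.1, 13.8, 15.4 and 24.3 CPM in fasted and 3.71, 1.43, 5.45 and 5.63 CPM in refed libraries (log2 fold change −2.29, SE 0.39, edgeR adjusted p = 0.00153), a 4.90-fold fall without overlap. Chac1, which degrades glutathione, fell by 2.43 and Gdf15, a stress hormone, by 1.87 (edgeR adjusted p = 0.00506 and 0.0117), each with 1 refed library inside the fasted range. Atf5 and Cebpb fell by 0.73 and 0.86 (edgeR adjusted p = 0.0187 and 0.0228). Both were lost without S50, which left 3 called, Atf5 also without S40, and Cebpb also without S41, S42 or S48. Asns, the asparagine synthetase gene, was at 6.85, 0.876, 0.695 and 0.803 CPM in fasted libraries, so that S40 stood apart, and at 0.192, 0.797, 0.637 and 0.883 CPM in refed ones (log2 fold change −1.89, edgeR adjusted p = 0.114). The letters TGATGNAA, the core to which ATF4 and C/EBP bind together, were found on either strand in 6 of 20 matched promoters of this list against 4.51% of 27025 genes. These were Trib3, Chac1, Asns, Vldlr, Slc7a11 and Nupr1, of which Trib3 and Chac1 alone were called and Slc7a11 was not tested. Gdf15, Atf5 and Cebpb, which were called, were not among them. In Chac1 the core lies 193 bases before the start, on the strand opposite to the gene, and is shown in capitals.
Chac1, chr2:119351023-119351082, plus strand: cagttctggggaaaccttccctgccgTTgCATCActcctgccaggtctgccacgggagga

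Part of the autophagy genes fell. Of 16 tested, 5 were called lower and 0 higher (31.25% called, beside 15.4% over all genes), with a median of −0.21. Each of the 5 kept its call in all 8 fits that left out 1 library. Gabarapl1, a protein of the autophagosome membrane, stood at 793, 651, 595 and 658 CPM in fasted and 255, 192, 345 and 434 CPM in refed libraries (log2 fold change −1.14, SE 0.20, edgeR adjusted p = 0.00207). The lowest fasted library held more than every refed one. Map1lc3b and Map1lc3a, homologous to it, fell by 0.77 and 0.47, and Sqstm1, the cargo receptor p62, by 0.64 (edgeR adjusted p = 0.00127, 0.00144 and 0.00397). Ctsl, a lysosomal protease, fell by 0.55 (edgeR adjusted p = 0.01). The upstream kinase gene Ulk1 and the lysosomal regulator gene Tfeb were not called.

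Junb, Jund and Fos, genes of the AP-1 family of immediate early factors, were lower. They were the 3 genes called of 12 (25%, beside 15.4% over all genes) on a list written after their values were seen, and 0 were higher. Junb stood at 75.9, 51.6, 68.4 and 124 CPM in fasted and 23.6, 14.9, 32.04 and 20.3 CPM in refed libraries (log2 fold change −1.81, SE 0.26, edgeR adjusted p = 6.5e-04). Jund fell by 0.71 and Fos by 1.53 (edgeR adjusted p = 0.00324 and 0.0445), and the call for Fos held without S51 and was lost without any other library.

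Part of the ribosome biogenesis genes rose. Of 22 ribosome biogenesis genes, 8 were called higher and 0 lower (36.4% called, beside 15.4% over all genes), with a median of 0.18. Nop56, a core protein of the particles that methylate ribosomal RNA, stood at 15.2, 14.7, 14.5 and 13.8 CPM in fasted and 21.8, 24.3, 22.3 and 23.2 CPM in refed libraries (log2 fold change 0.65, SE 0.10, edgeR adjusted p = 9.5e-04). The values within each group lay within 3 CPM of each other. Rrp12 rose by 0.71 (edgeR adjusted p = 0.00257). None of 62 cytosolic ribosomal protein genes was called (median 0.052), and 5 were higher once the length trend was removed, 3 were higher without S51 and 1 was lower without S42. Odc1, the rate-limiting enzyme of polyamine synthesis, picked for its small p, went from 74.9, 75.8, 76.6 and 72.3 CPM to 154, 145, 136 and 142 CPM (log2 fold change 0.94, SE 0.11, edgeR adjusted p = 1.9e-04). Of 11 tubulin genes, on another list written after values were seen, 6 were higher and 0 lower (54.55% called). Tubb2a rose from 30.2, 25.8, 20.7 and 35.1 CPM to 125, 133, 83.3 and 61.0 CPM (log2 fold change 1.85, SE 0.34, edgeR adjusted p = 0.00257), Tuba1c by 1.22 and Tuba4a by 1.103 (edgeR adjusted p = 1.6e-04 and 4.4e-04). Tubulin genes are close copies of each other, so reads could be split between them and single values are uncertain. Hsp90aa1, the inducible cytosolic HSP90, rose by 1.21 and the cold-induced Cirbp fell by 0.58 (edgeR adjusted p = 0.00242 and 0.0209), while the main heat shock gene pair Hspa1a and Hspa1b was not called. Cirbp was not called without S40, S43, S48 or S49. Of the heat shock list of 14 genes 2 were higher and 1 lower (21.4% called, beside 15.4% over all genes), and 1 was called without any one of these 4 libraries.

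Antigen presentation was lower. On a list written after values were seen, 12 of 18 genes were called lower and 0 higher (66.7% called, beside 15.4% over all genes). The median was −0.53, and 7 and 6 were called without S40 and S50. Tap1, a subunit of the peptide transporter of MHC class I, stood at 65.2, 51.5, 61.0 and 56.4 CPM in fasted and 28.9, 22.6, 31.0 and 38.2 CPM in refed libraries (log2 fold change −0.96, SE 0.13, edgeR adjusted p = 3.9e-04). Psmb9, an immunoproteasome subunit encoded next to it, went from 45.6, 35.6, 42.8 and 33.9 CPM to 24.2, 20.7, 20.0 and 25.1 CPM (log2 fold change −0.81, SE 0.13, edgeR adjusted p = 0.00137). Neither gene's groups overlapped. H2-K1 fell by 0.38 and the class II gene H2-Aa by 0.85 (edgeR adjusted p = 0.0169 and 0.0166), the first lost without S50 and the second without S40 or S50. Histocompatibility genes have close copies and are uncertain. Class II genes mark antigen-presenting cells rather than hepatocytes. Of the markers of such cells, all 7 tested on the recruited macrophage list had a log2 fold change below 0 (median −0.37), with a summed level of 26.5 to 48.3 CPM in fasted and 21.6 to 34.7 CPM in refed libraries. The 8 of the Kupffer cell list had a median of 0.044 (339 to 640 CPM and 283 to 951 CPM). On the T or NK cell list, which marks other immune cells, all 5 were below 0 (median −0.75, 2.16 to 3.82 CPM and 0.883 to 2.19 CPM). Of these 20 genes 1 was called, and none was at 0 in all 8 libraries. On the B or plasma cell list 0 of 4 tested were called, 2 had a log2 fold change above 0, and the median was −0.055. The part of any of these cells in the result was not tested.

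Nuclear genes of the respiratory chain and ATP synthase, also a list written after values were seen, were lower at 11 of 58 and higher at 0 (median −0.15). The share called was 19.0%, near the 15.4% over all genes. With the length trend removed 2 were called lower, as were 3, 2, 4 and 2 without S40, S43, S48 and S50. All 11 changes were smaller than 0.38 on the log2 scale. The 13 protein-coding transcripts of the mitochondrial genome had 0 calls (median 0.11, or −0.061 with limma-voom), against 2 higher once the length trend was removed, 1 higher without S50 and 1 lower without S40, S49 or S51.

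Of 19 lipoprotein genes, 2 were called higher and 5 lower (36.8% called, beside 15.4% over all genes). Apoe, the most abundant of the list per length of transcript, stood at 54170, 45220, 47760 and 52360 CPM in fasted and 37260, 35080, 31560 and 38420 CPM in refed libraries (log2 fold change −0.49, SE 0.10, edgeR adjusted p = 0.00539). Every refed library lay below every fasted one. The receptor genes Scarb1, for HDL, and Lrp1, for remnants, fell by 0.56 and 0.46 (edgeR adjusted p = 0.00187 and 0.00525). Apoc3 and Lcat fell by 0.31 and 0.26 (edgeR adjusted p = 0.0384 and 0.0397), calls that were lost in 6 and 7 of the 8 fits that each left out a library (Apoc3 kept its call without S41 or S49, and Lcat without S49). Mttp, which loads lipid onto apolipoprotein B, rose by 0.40 (edgeR adjusted p = 0.0318), lost without S40, S43, S48, S50 or S51. Angptl8, a hormone induced by feeding that restrains lipoprotein lipase, stood at 32.1, 28.0, 19.9 and 89.1 CPM and 299.9, 136, 102 and 39.4 CPM. S43 among the fasted and S51 among the refed libraries overlapped, and its call (log2 fold change 1.77, SE 0.58, edgeR adjusted p = 0.0487) was lost in 6 of the 8 fits, those without S43 and S51 aside. The list had 3 genes lower and 0 higher without S40, S48 or S50, and 3 lower and 1 higher without S42 or S43.

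The other genes picked by the rule belong to no list above. Col27a1, a fibrillar collagen gene (chromosome 4 from 63132241 to 63253228), stood at 25.3, 58.7, 31.97 and 34.2 CPM in fasted and 211, 188, 149 and 163 CPM in refed libraries. Its rise of 4.73-fold was the second largest of the 24 (log2 fold change 2.24, SE 0.25, edgeR adjusted p = 1.6e-04), and collagen genes of stellate cells, Col1a1 and Col3a1, were not called. Celsr1, a cadherin of planar cell polarity, went from 5.71, 10.6, 6.95 and 11 CPM to 33.9, 29.3, 27.4 and 14.6 CPM (log2 fold change 1.63, SE 0.31, edgeR adjusted p = 0.00331). Every refed library was above every fasted one. Fam47e rose by 1.57 (edgeR adjusted p = 0.0132). Slc22a28, Nat8f5 and Zfp970 rose by 1.58, 1.57 and 1.57 (edgeR adjusted p = 3.1e-04, 0.00793 and 0.00782), and all 3 belong to families of close copies and are uncertain.

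Among the falls, Rgs16, a GTPase activator that shuts off G protein signals, stood at 44.9, 279.9, 113 and 61.4 CPM in fasted and 12.2, 18.9, 17.8 and 28.0 CPM in refed libraries (log2 fold change −2.70, SE 0.61, edgeR adjusted p = 0.00796). The fasted group spanned a 6-fold range with S41 highest, and all refed libraries lay below it. Fbxo21, a subunit of a ubiquitin ligase, went from 154 ± 24.5 to 51.7 ± 26.3 CPM (SD, n = 4; log2 fold change −1.58, edgeR adjusted p = 0.00785). Tymp, the thymidine phosphorylase gene, fell by 1.61, the lectin gene Clec2h by 2.02, the orphan transporter gene Slc6a16 by 1.67 and Camk2n2, an inhibitor of CaM kinase II, by 1.65 (edgeR adjusted p = 0.00594, 0.00773, 5.1e-04 and 3.1e-04). All 24 genes kept their call whichever control library was left out, apart from Dbp, whose losses are given above. The rule, which asks for large called changes without overlap in the same libraries, favours this outcome.

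Further genes were chosen for a small p. Midn, whose protein delivers nuclear proteins to the proteasome, stood at 103, 82.8, 96.4 and 83.3 CPM in fasted and 48.04, 44.1, 50 and 45.1 CPM in refed libraries (log2 fold change −0.96, SE 0.081, edgeR adjusted p = 2.6e-05). Ubxn1, a cofactor of the p97 ATPase, went from 151, 137, 143 and 165 CPM to 74.0, 75.9, 76.3 and 85.8 CPM (log2 fold change −0.93, SE 0.093, edgeR adjusted p = 1.5e-04). Castor1, the arginine sensor upstream of mTORC1, fell by 1.603, and Prkaa2, the alpha 2 subunit of AMPK, rose by 0.73 (edgeR adjusted p = 1.6e-04 and 1.6e-04). In these 4 genes, chosen after their values were seen, every refed library lay to one side of every fasted one. A choice by small p favours such separation, which is therefore no further support.

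The remaining lists are given by their counts, to be read beside the 15.4% called over all genes tested. Of 14 secreted metabolic factors and 16 DNA replication genes tested, 0 were called, and of 23 bile acid and cholesterol export genes and 22 genes of amino acid breakdown and the urea cycle, 1 each was lower. The first of these calls was lost without S40 or S50, and the second without S40, S42, S48 or S50 or once the length trend was removed, while 2 were called on either list without S49. On the lists of triglyceride synthesis (11 genes) and acute phase proteins (15 genes) 2 each were lower and 0 higher. Of the former 1 was called without S40, S43 or S50, and of the latter 1 without S40 or S48 or with the length trend removed, and 0 without S43 or S49. Of 9 NADPH supply genes, 2 were higher and 1 lower. Of 10 sterol sensing genes, Insig1 and Scap among them, 1 was higher and 1 lower, with 3 lower once the length trend was removed, and without S41 and S51 the higher genes numbered 3 and 4. DNA replication had 1 higher without S51, 1 called with DESeq2 or a minimum mean of 5 CPM, and 2 from the control libraries alone.

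The same refeeding schedule in LKO liver, in libraries not shared with the control comparison, called 2616 genes (18.1%), 1344 higher (9.28%) and 1272 lower (8.78%). Of the genes called in control liver 41.8% were called in LKO liver, and of those called in LKO liver 35.8% were called in control. The 936 genes called in both had the same direction in 918. Pearson's r between the fold changes of both genotypes on the log2 scale was 0.489 and Spearman's rho 0.446 over 14488 genes, which are not independent and whose values share the 8 libraries of each genotype. The difference between the genotypes' responses was called for 78 genes (0.538%), and 2397 had an unadjusted p under 0.05. This count depended on nearly every library: it moved by more than 1.5 times in all 16 fits that omitted 1 library except those without S47 or S51, and ran from 8 without S48 to 282 without S49, both refed control libraries.

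**Figure D4:**
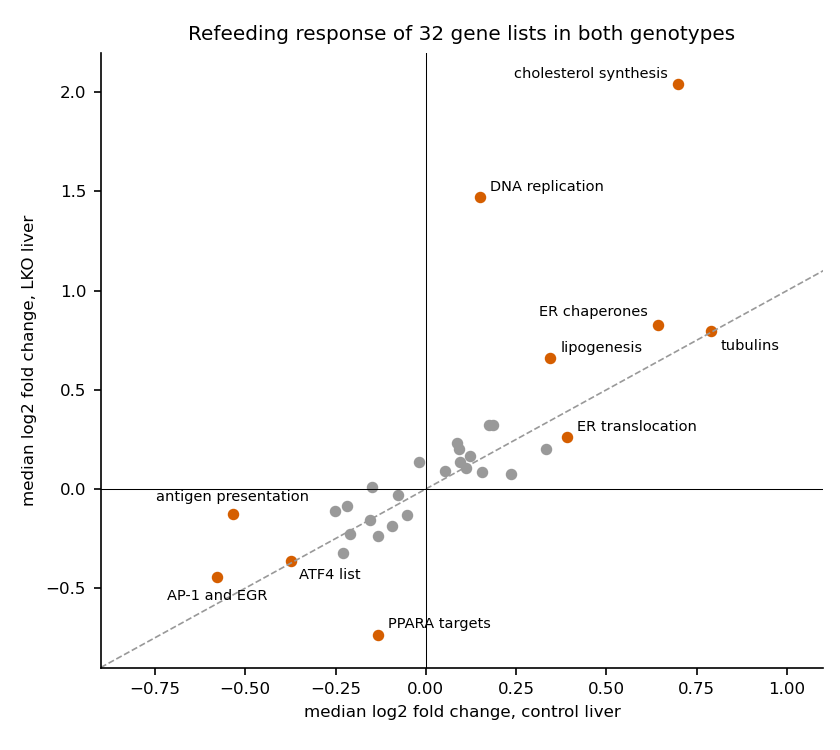
Median log2 fold change after refeeding of the tested genes of 32 gene lists in control (x axis) and LKO liver (y axis), with named lists in colour and a dashed line where both are equal. Cholesterol synthesis (0.70 and 2.04), DNA replication (0.15 and 1.47) and PPARA targets (−0.13 and −0.73) lie farthest from the line.

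Several of the largest changes in control liver were also called in LKO liver. Mt1 fell by 3.69 there, Cry1 rose by 2.196 and Nr1d1 fell by 2.05 (edgeR adjusted p = 2.1e-04, 0.00203 and 6.3e-04), and the differences from control were −0.23, −0.42 and 0.24 (SE 0.67, 0.59 and 0.46; edgeR adjusted p = 0.895, 0.765 and 0.833). Dbp, by contrast, was not called in LKO liver (−0.57, edgeR adjusted p = 0.465), and its difference of 1.19 was not called either (edgeR adjusted p = 0.411). Of the ER chaperone list 16 of 22 genes were higher in LKO liver against 14 in control. Cholesterol synthesis had 17 of 20 higher in LKO liver against 3 (medians 2.04 and 0.70), PPARA targets 12 of 23 lower against 0, and DNA replication 11 of 16 higher against 0. The difference itself was called for 0 genes of the first 2 of these lists and for 2 of the DNA replication list, and on the chaperone list for Manf. The 0 for DNA replication in control liver depended on the method: it was 1 with DESeq2 and 2 from the control libraries alone. Of that list, 4 genes had every refed control library above every fasted one, and 1 had every one below. The authors' deposited table has Mcm2, Mcm3, Mcm4 and Mcm5 higher in refed control liver under the same threshold. Pdk4, which was not called in control liver, had −2.76 in LKO liver, and the difference of −2.79 was not called (SE 0.71, edgeR adjusted p = 0.0707).

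Some responses of control liver did differ. Lars2, the mitochondrial leucyl-tRNA synthetase, rose in control liver from 64.4, 62.0, 91.3 and 62.6 CPM to 175, 181, 132 and 115 CPM and went the other way in LKO liver, from 147 ± 33.3 to 96.8 ± 14.6 CPM (SD, n = 4; difference −1.71, SE 0.26, edgeR adjusted p = 0.0168). Camk2n2 fell by 1.65 in control liver and had −0.24 in LKO liver (difference 1.41, SE 0.29, edgeR adjusted p = 0.0426). Castor1, which fell in control liver by 1.603 on the log2 scale, had a difference of 1.91 (SE 0.25, edgeR adjusted p = 0.0122), and stood at 1.92 ± 0.421 and 2.36 ± 0.359 CPM in fasted and refed LKO liver (SD, n = 4) against 4.97 ± 0.546 and 1.64 ± 0.159 CPM in control. The immunoproteasome genes Psmb9 and Psmb10, lower in refed control liver by 0.81 and 0.32 on the log2 scale and at 0.087 and 0.56 in LKO liver, had differences of 0.90 and 0.88 (SE 0.19 and 0.13, edgeR adjusted p = 0.0426 and 0.0168). Slc10a2, a bile acid transporter gene, rose by 1.02 in control and by 2.74 in LKO liver (difference 1.72, SE 0.37, edgeR adjusted p = 0.0447).

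Genes named by the rule for a difference but not called in control liver were E2f1, Manf and Cyp2u1, with a higher log2 fold change in LKO liver, and Acot3, Rab30, Slc16a1 and Ccng2, with a lower one. Acot3, which has close copies, is uncertain. Slc16a1, the lactate and ketone body transporter MCT1, stood at 28.0 ± 5.82 and 33.1 ± 3.30 CPM in fasted and refed control liver and at 78.5 ± 22.1 and 29.0 ± 1.82 CPM in LKO liver (SD, n = 4; difference −1.68, SE 0.25, edgeR adjusted p = 0.0168). Ccng2, the cyclin G2 gene, was at 8.60 ± 0.517 and 8.70 ± 1.34 CPM in control liver (SD, n = 4; difference −1.44, SE 0.24, edgeR adjusted p = 0.0194). Over the same 16 fits, Lars2, Castor1, Psmb10 and Slc16a1 kept the call of a difference in 16 and Ccng2 in 15. E2f1, Acot3, Cyp2u1, Psmb9, Camk2n2, Slc10a2, Manf and Rab30 kept theirs in 8, 7, 5, 5, 4, 3, 2 and 2, respectively, with a highest edgeR adjusted p of 0.0953.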

How the data were processed

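Gene counts of 16 liver libraries were used as deposited. Per the submitters' processing notes, the tools and builds named include HISAT2 2.0.5 and mm39, and the counting tool, and whether it used strand, are not given in the sources used here. The counts were deposited by the authors as raw counts per gene in 4 tables of 8 libraries each, which held equal counts for shared libraries and were joined. A gene missing from a table was set to 0. The authors' deposited table of refed against fasted control liver also gives log2 fold changes and adjusted p-values, used as a comparison only, and per the file headers a gene length in bases, used as deposited. In all, 64 columns of other per-library values were not used. Count columns name libraries (S40 to S55) and, through the group headings that tables share, their group, but not which sample of the group.

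CPM were computed from counts and TMM-scaled library sizes (factors 0.941 to 1.07). All 16 libraries were fitted together by group with edgeR 4.0.16 (R 4.3.3), with filterByExpr, the quasi-likelihood test and Benjamini-Hochberg adjustment over 14488 genes. Limma-voom (limma 3.58.1), DESeq2 1.42.0 and the alternatives of the closing section were run on the same counts, and the fits were tested on simulated data. Shares of counts per library were compared with exact permutation tests. A list's deviation in a library is the mean over tested genes of log2(CPM + 0.5) minus its fasted control mean.

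Named genes were 12 rises and 12 falls, taken in order of size from the protein-coding genes that were called, had a symbol, at least 5 CPM over the control libraries and no overlap (predicted genes left out), the 5 largest differences between genotypes in each direction, Cpt1a, and members of the lists. A few of the genes this rule gives are not reported here. Genes described for a small p were chosen after their values were seen. The members and lists were chosen with earlier results of these data known, and 7 of the 32 lists (ER translocation, coats, tubulins, antigen presentation, respiratory chain, ribosomal proteins, AP-1) were added after values had been seen. Removing each library's lowess trend on gene length (span 0.3) was also chosen after seeing the data. Promoter windows of 300 bases came from RefSeq (GRCm38.p6), searched on both strands, and no coordinate was moved between builds. The SREBP element was on 1 of 14 lipogenic and 1 of 15 cholesterol synthesis promoters (1.44% of 27025 genes). The FOXO element was on 2 of 14 promoters of the insulin list (4.05%), and the heat shock element on 3 of 10 of its list (0.662%). The PPAR repeat was on 0 of 18 PPARA target promoters (0.0481%), and the cAMP response element on 0 of 12 gluconeogenic promoters (2.03%).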

Additional observations from a re-analysis of the deposited data

Results flagged for a closer look

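Among 352 groups of 4 libraries checked, 24 had 1 library far from the other 3 (the gap to the nearest of them took up most of the group's range, above Dixon's critical value), where chance gives about 1 in 20. In the refed control group the distant values were 40.32 CPM for Mt1 (S51), 1.646 CPM for Clec2h, 18.75 CPM for Ciart, 203.5 CPM for Dnajb11, 159.8 CPM for Syvn1, 198.9 CPM for Rpn1, 192.5 CPM for Lman1, 37.54 CPM for Copz2, 9.712 CPM for Rrp12 and 366.8 CPM for Pklr. Of the sterol genes, Idi1 at 24.27 CPM, Hsd17b7 at 56.51 CPM and Sqle at 40.47 CPM were each far from the rest in refed S49, as was the mean log2 deviation of the ATF4 list at −0.725. In the fasted control group the distant values were 8.401 CPM for Fam47e, 10.38 CPM for Bhlhe41, 150.5 CPM for Canx, 50 CPM for Ssr1, 10.04 CPM for Sqle, 169.8 CPM for Scap, 16.81 CPM for Phkg2, 6.852 CPM for Asns (S40), 831.1 CPM for Sqstm1 and 91.31 CPM for Lars2.

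The refeeding effect differed between genotypes, by edgeR's interaction term (adjusted p under 0.05), for 13 named genes. The log2 fold change in LKO minus that in control liver was 2.212 for E2f1, 1.913 for Castor1, 1.718 for Slc10a2, 1.463 for Manf, 1.411 for Cyp2u1, 1.409 for Camk2n2, 0.901 for Psmb9 and 0.878 for Psmb10. It was −2.051 for Acot3, −1.821 for Rab30, −1.708 for Lars2, −1.677 for Slc16a1 and −1.441 for Ccng2.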

How the results depend on the processing

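The 2238 genes called in control liver became 2585 with DESeq2, 2346 with limma-voom, 2231 and 2281 with RLE and upper quartile scaling, 2263 with a minimum mean of 5 CPM, 1682 with no filter, 1982 from the 8 control libraries alone and 1992 with the length trend removed, an alternative chosen after seeing the data. An adjusted p under 0.01 left 822, 408 higher and 414 lower, and a 2-fold minimum left 272, 119 higher and 153 lower. Leaving out 1 library gave 1220 to 2483 called, 595 to 1199 higher and 625 to 1284 lower. The 78 differences between genotypes became 458 with DESeq2, 197 with a minimum mean of 5 CPM, 42 with the length trend removed, 35 with a 2-fold minimum and 0 at an adjusted p under 0.01 (edgeR; 2397 had an unadjusted p under 0.05), and 8 to 282 without 1 library. Beyond stricter thresholds and fewer samples, the cause was not tested.

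Of 32 lists, the count of called members moved by more than 1.5 times for 8 with DESeq2, 3 with limma-voom, 1 with either scaling, 7 with the 5 CPM minimum, 2 with no filter, 11 from the control libraries alone and 6 with the length trend removed. Among them, fatty acid oxidation had 6 called with DESeq2 or the 5 CPM minimum, insulin and FOXO targets 4 with either, and the respiratory chain 4 with no filter and 5 from the control libraries alone. Cholesterol synthesis had 1 with limma-voom or the control libraries alone. Of 141 genes named or checked, none that was called changed direction under an alternative in which it was tested (132 were tested with the 5 CPM minimum, 140 from the control libraries alone). No paired analysis was possible because the count columns carry no replicate number.

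Counts of 14721601 to 24618230 per control library limit genes of low level most. Asns and Mt2, for instance, had refed values under 1 CPM in several libraries.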
